A study of Homo sapiens with 15 samples.

Results

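Transforming growth factor β (TGF-β) ligand, receptor, SMAD, and target genes were measured in 15 xenograft tumors of HCT116, a human colon cancer cell line. The 9 genes were TGFB1 and BMP4 (ligands), TGFBR1 and TGFBR2 (receptors), SMAD2, SMAD3, SMAD4, and SMAD7 (SMADs), and ID1 (a target). All array probes whose RefSeq accession belongs to one of them were taken, which gave 9 of 34127 probes, 1 for each gene, and 36 of 43118 spots, because TGFB1, SMAD3, and SMAD4 were printed at 10 spots each. On each of the 15 arrays all 9 probes exceeded background, and they were among the 30585 probes tested.

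Each tumor came from HCT116 cells that had been transiently transfected and injected into athymic nude mice, and 3 tumors were taken for each of 5 constructs. Expression in culture was reported for a shorter time than the tumors were grown. The constructs were the empty vector, RASSF1A, wild type MOAP-1, and MOAP-1 with the K264R or the K278R change, in which a lysine is replaced by arginine. MOAP-1 is a proapoptotic partner of the tumor suppressor RASSF1A, and all groups share the cell line, the host, and the day of excision. The cells were transfected pools rather than single clones, the host keeps its own stroma and innate immune cells, and each array held 1 tumor, so fewer cells of a type and less RNA in each cell cannot be told apart. A level is given below as log2 of the background-corrected intensity after the 75th percentile of the array was set to 0. A difference of 1 is a 2-fold change, and levels of different probes are not compared.

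TGF-β ligands bind the type II receptor TGFBR2, which activates the type I receptor TGFBR1. TGFBR1 then phosphorylates SMAD2 and SMAD3, which enter the nucleus with SMAD4 and regulate targets that include SMAD7, an inhibitor that feeds back on the receptor. BMP4 signals through other receptors and through SMAD1, SMAD5, and SMAD9 to induce ID1, which holds helix-loop-helix transcription factors inactive. HCT116 cells are microsatellite-unstable and are known to lack a functional TGFBR2 protein, and an array that measures RNA does not show whether the protein works.

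The tumor labels were compared with the transfected genes. MOAP1 was higher than in vector tumors by 0.86 ± 0.14 (log2, SE) in MOAP-1 tumors (adjusted p = 0.000855, limma), by 0.55 ± 0.14 in K264R tumors (adjusted p = 0.00928), and by 0.74 ± 0.14 in K278R tumors (adjusted p = 0.00509). The RASSF1 probe did not follow the label, with 1.55 to 1.59 in tumors labeled RASSF1A and 1.52 to 1.81 in vector tumors (difference -0.12 ± 0.10, adjusted p = 0.67). Whether that probe lies within the transfected RASSF1A sequence is not given in the sources used here. Whether the transient expression lasted until excision was not tested. Directions for the tumors labeled RASSF1A therefore rest on the label alone. Epithelial markers of HCT116 were well above background on all arrays (11 of 11 genes). Of 10 fibroblast markers 6 were so on all arrays, and their summed level ran from 1.24 in vector tumor 3 to 5.67 in MOAP-1 tumor 2, while POSTN and LUM were well above background on 1 and 0 arrays. The array is human and the host stroma is mouse, so the fibroblast markers read cross-hybridized or human signal. Their level is therefore not a direct measure of the host fibroblasts. Construct and slide largely coincide. Slide A held MOAP-1 tumors 1 and 3, slide B held MOAP-1 tumor 2 and all K278R tumors, slide C held all K264R tumors, slide D held all vector tumors and RASSF1A tumor 3, and slide E held RASSF1A tumors 1 and 2. For MOAP-1, K264R, and K278R against vector or RASSF1A, and for K264R against MOAP-1 or K278R, slide and construct therefore cannot be told apart. RASSF1A tumors 1 and 2 were scanned on day 2 and all other tumors on day 1.

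Of the 9 genes, 5 differed across the 5 constructs by limma's F test over the changes from vector (adjusted p below 0.05), against 43.3% of all probes tested. These were SMAD2 (adjusted p = 0.0012), TGFB1 (0.00399), BMP4 (0.00524), TGFBR2 (0.00793), and SMAD4 (0.0294). The test was not passed by ID1 (0.0607), SMAD7 (0.177), TGFBR1 (0.252), or SMAD3 (0.883). The p-values measure the spread between tumors, which the methods call independent.

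A probe was called in a single comparison when its adjusted p was below 0.05 and its change was at least 1.5-fold. In MOAP-1 tumors 3 of the 9 genes were called higher than vector, TGFB1, SMAD2, and BMP4, against 9.87% of all probes, and 0 were called lower, against 6.7%. In K264R tumors 2 were called higher, SMAD2 and SMAD4, against 9.32%, and 0 were called lower, against 10.2%. In K278R tumors 2 were called higher, TGFB1 and SMAD2, against 7.71%, and 0 were called lower, against 3.21%. Tumors labeled RASSF1A gave 0 calls among the 9 genes by limma, as they did among all probes (0% higher and 0% lower). Only 1 gene, BMP4, was below an unadjusted p of 0.05 (3696 of 30585 over all probes), and 0 were called by the methods' t-test. Without RASSF1A tumor 3, limma called 260 higher and 1154 lower over all probes, and still 0 of the 9 genes. The median change of the 9 genes was 0.21 in MOAP-1, 0.35 in K264R, 0.15 in K278R, and -0.08 in RASSF1A tumors, against 0.02, -0.05, 0.06, and 0.02 over all probes. These comparisons share the 3 vector tumors. With quantile normalization in place of the 75th percentile, the calls over all probes against vector split into 2302 higher and 2427 lower with MOAP-1 (3020 and 2049 here) and 1371 higher and 1292 lower with K278R (2358 and 981 here). With K264R the split moved most under the normexp model without outlying spots, described next, to 1280 higher and 6576 lower (2849 and 3105 here).

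The calls depended on how local background was treated. Under the normexp model, an alternative that fits signal and background together, TGFB1 and SMAD2 turned to -0.23 and -0.10 with MOAP-1 and to -0.16 and -0.40 with K278R, and 0 of the 9 genes were called against vector by limma. That model was fitted with 28 spots on 5 arrays whose local background was over 2 times the median of the array. The arrays of vector tumors 2 and 3 held 6 and 12 of them, those of K264R tumors 1 and 2 held 3 and 6, and that of K278R tumor 3 held 1. The median over all probes moved to -0.53 with MOAP-1, -0.31 with K264R, and -0.46 with K278R. TGFB1 and SMAD2 lay above that median with MOAP-1 and with K278R. Without these spots the median over all probes was -0.13 with MOAP-1, -0.26 with K264R, and -0.06 with K278R. TGFB1 and SMAD2 were then at 0.43 and 0.88 with MOAP-1 and at 0.49 and 0.58 with K278R. The 2 genes called with MOAP-1 were SMAD2 and BMP4, as were the 2 called with K264R, and 0 were called with K278R. TGFB1 was called with none of them, and SMAD4 was not called with K264R. The directions given below are those of the background correction of the scanner software.

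**Figure D1:**
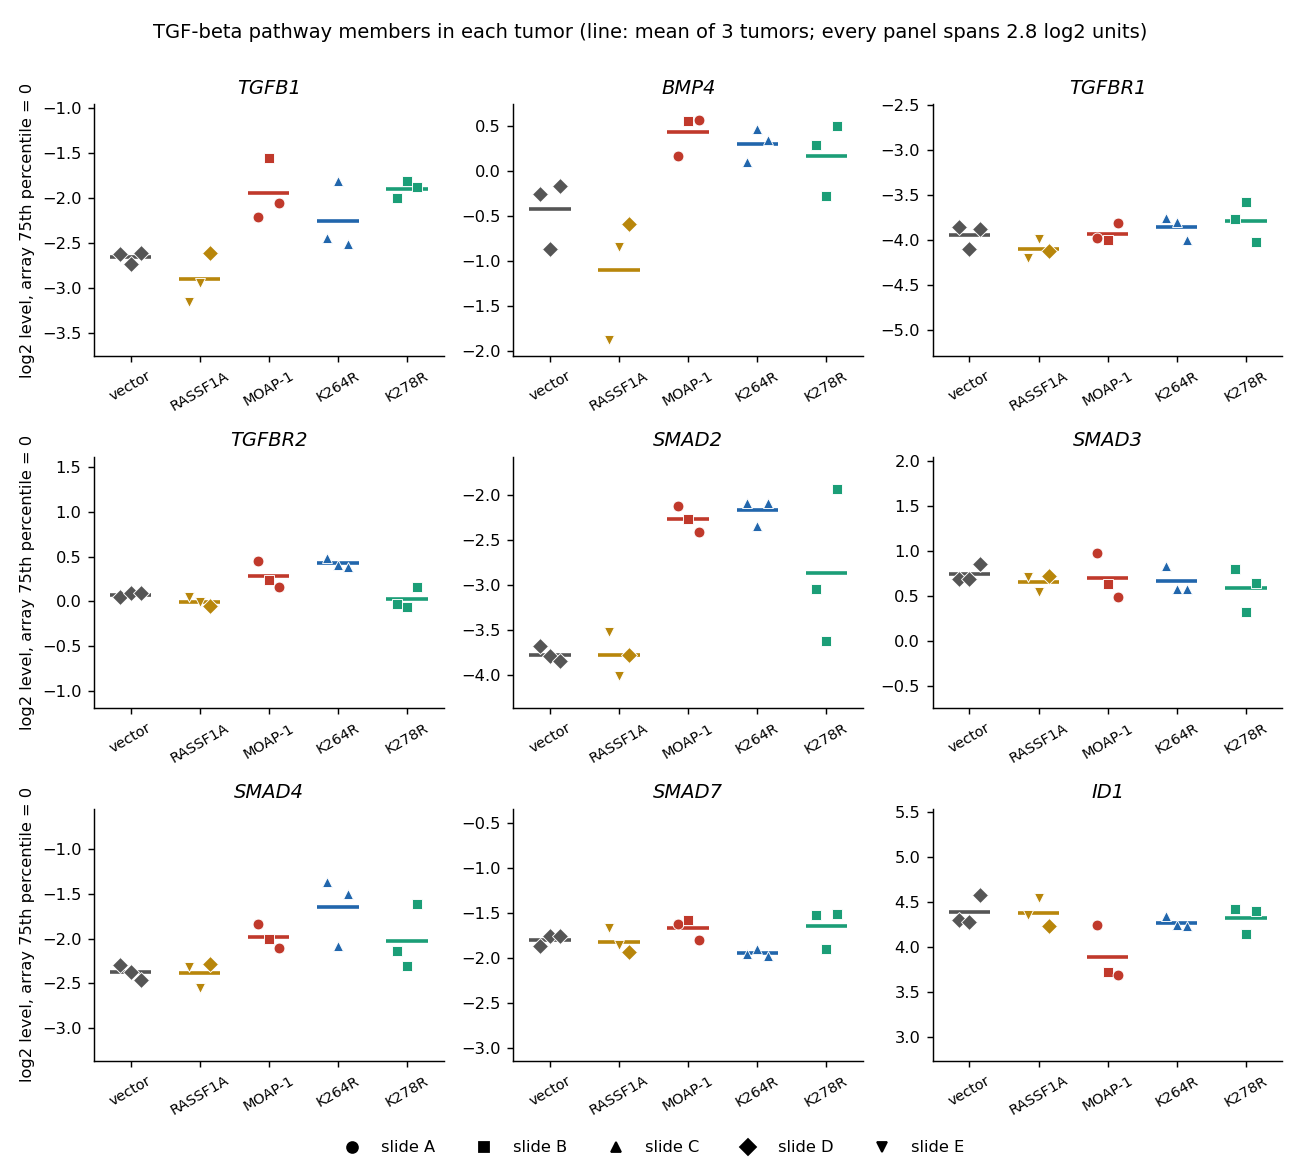
Log2 level of each gene (y axis, array 75th percentile at 0) in each tumor, by construct (x axis and color). Each point is 1 tumor, its shape gives the slide, the line is the mean of 3 tumors, and every panel spans the same range; SMAD2 separated MOAP-1 and K264R tumors (-2.41 to -2.08) from vector tumors (-3.84 to -3.68).

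SMAD2, one of the receptor-activated SMADs, had the largest change from vector among the 9 genes in each of the MOAP-1, K264R, and K278R tumors. Its level was -3.68, -3.79, and -3.84 in vector tumors 1 to 3 and -3.52, -4.01, and -3.78 in the tumors labeled RASSF1A. The corresponding levels were -2.12, -2.26, and -2.41 in MOAP-1 tumors and -2.08, -2.34, and -2.08 in K264R tumors. All MOAP-1 and K264R tumors lay above all vector and RASSF1A tumors. SMAD2 was 2.84-fold higher than vector with MOAP-1 (log2 difference 1.51 ± 0.30 SE, adjusted p = 0.00275, limma) and 3.03-fold higher with K264R (1.60 ± 0.30, adjusted p = 0.00145). Neither call was lost when any tumor was left out, with changes of 1.43 to 1.58 and 1.56 to 1.69.

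K278R tumors were split for SMAD2, with -3.04, -3.62, and -1.93 in tumors 1 to 3, so that tumor 2 was close to vector and tumor 3 was the highest of all 15. The mean difference from vector was 0.91 ± 0.30 (adjusted p = 0.0486), and the call was lost in 14 of 15 fits with 1 tumor left out. It was kept only without K278R tumor 2, where the difference was 1.29 (adjusted p = 0.00633), and without K278R tumor 3 it was 0.44 (adjusted p = 0.122). K278R did not differ from MOAP-1 beyond the spread (MOAP-1 minus K278R 0.60, 95% interval -0.05 to 1.25, adjusted p = 0.578).

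SMAD4, the common partner of the other SMADs, was called higher in K264R tumors and in no other group. Its levels in vector tumors were -2.30, -2.37, and -2.46, and in the tumors labeled RASSF1A -2.32, -2.55, and -2.28. In K264R tumors it stood at -1.37, -2.08, and -1.51. Tumor 2 was the lowest of the K264R tumors but still lay above every vector tumor. The change was 0.72 ± 0.19 (1.65-fold, adjusted p = 0.0109, limma), and without K264R tumor 1 it was 0.58 with an adjusted p of 0.0551. The call was also lost under normexp (0.31, adjusted p = 0.645, limma). Without the outlying spots the change was 0.45 (adjusted p = 0.0175), under the fold threshold. The MOAP-1 tumors had -1.84, -2.01, and -2.11, a difference that did not pass the test (0.39 ± 0.19, adjusted p = 0.137) and took the other sign under normexp (-0.36). K278R tumors, at -2.14, -2.31, and -1.62, overlapped vector (0.36 ± 0.19, adjusted p = 0.196). Whether K264R differed from MOAP-1 was tested directly, and the difference of 0.33 (K264R minus MOAP-1) had an adjusted p of 0.547.

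SMAD2 and SMAD4 followed each other from tumor to tumor and followed the brightness of the arrays. Over the 15 tumors Pearson's r between them was 0.88, and 0.80 for deviations from the construct means, as a description of arrays that share a slide and a scaling. The 75th percentile of the signal ran from 495.8 on the array of K278R tumor 2 to 1400 on that of K264R tumor 3, and it was higher on all MOAP-1 and K264R arrays than on any vector array. With its log2, the r of SMAD2 was 0.83 (Spearman's rho 0.81, n = 15), or 0.79 for deviations within constructs and 0.85 without the 2 arrays farthest from the median. For SMAD4 the r was 0.81 (rho 0.86), or 0.58 within constructs and 0.82 without those 2 arrays, and for TGFBR2 it was 0.73 (rho 0.73), or 0.38 and 0.66. The median r over all probes tested was -0.13, and 98.7% of them had a lower r than SMAD2. The part of array brightness in the SMAD2, SMAD4, and TGFBR2 values was not tested.

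The sequence upstream of these genes is shown because SMAD2 and SMAD4 moved together, and because SMADs bind short DNA motifs. Among these are CAGAC (read as GTCTG on the other strand), the palindrome GTCTAGAC, and the GC-rich GGCGCC. RefSeq windows of 250 bases before the most upstream annotated start (build GRCh38.p14, 5′ to 3′) are printed with motif matches in capitals. CAGAC or GTCTG occurs in 38% of 35116 such human windows, GTCTAGAC in 0.182%, and GGCGCC in 16.4%. SMAD2 and SMAD4 each held 1 GGCGCC and SMAD3, which did not pass the F test, held 2. SMAD7, the classical SMAD target, held 2 CAGAC, BMP4 held 1 GTCTG and 1 GGCGCC, and TGFB1, TGFBR1, TGFBR2, and ID1 held none of the motifs. GTCTAGAC was in none of these windows of the 9 genes. The share of G and C was 78.4% for SMAD2, 80.8% for SMAD3, 68.4% for SMAD4, and 63.6% for BMP4, whose windows held GGCGCC. In windows without GGCGCC it was 76.8% for TGFB1, 66% for ID1, 48% for SMAD7, 44% for TGFBR1, and 40.8% for TGFBR2. The 16.4% of all windows was not matched for that share, so it is no measure of enrichment. Only the most upstream window of each gene is described. Of promoters, 8 are listed for TGFBR1, 5 for SMAD3, 3 each for SMAD7 and BMP4, and 2 each for TGFBR2 and SMAD2. A motif absent from the window described may therefore lie before another start of the gene. A match is a description of the letters and not a bound site.
SMAD2 (chr18:47930873-47931122, minus strand): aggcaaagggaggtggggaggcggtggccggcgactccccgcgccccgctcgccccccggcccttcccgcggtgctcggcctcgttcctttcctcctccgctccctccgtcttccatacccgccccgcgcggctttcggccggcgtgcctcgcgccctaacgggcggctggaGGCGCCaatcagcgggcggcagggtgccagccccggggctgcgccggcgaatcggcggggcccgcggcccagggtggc
SMAD4 (chr18:51029963-51030212, plus strand): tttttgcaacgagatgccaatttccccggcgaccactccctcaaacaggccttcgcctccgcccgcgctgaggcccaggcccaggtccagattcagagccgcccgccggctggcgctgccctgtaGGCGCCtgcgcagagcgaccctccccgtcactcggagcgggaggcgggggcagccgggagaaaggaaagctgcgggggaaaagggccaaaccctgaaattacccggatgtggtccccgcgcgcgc
SMAD7 (chr18:48950966-48951215, minus strand): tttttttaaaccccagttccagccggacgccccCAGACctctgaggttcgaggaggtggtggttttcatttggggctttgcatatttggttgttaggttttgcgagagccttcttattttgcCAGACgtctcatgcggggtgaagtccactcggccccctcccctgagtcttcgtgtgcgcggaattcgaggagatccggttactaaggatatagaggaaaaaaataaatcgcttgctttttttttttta
BMP4 (chr14:53955051-53955300, minus strand): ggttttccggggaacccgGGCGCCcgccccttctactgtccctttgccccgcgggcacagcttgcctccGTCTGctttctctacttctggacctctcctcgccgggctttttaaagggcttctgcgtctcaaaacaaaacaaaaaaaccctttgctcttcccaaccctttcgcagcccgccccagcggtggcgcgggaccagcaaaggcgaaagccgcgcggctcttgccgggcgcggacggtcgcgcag
TGFB1 (chr19:41353923-41354172, minus strand): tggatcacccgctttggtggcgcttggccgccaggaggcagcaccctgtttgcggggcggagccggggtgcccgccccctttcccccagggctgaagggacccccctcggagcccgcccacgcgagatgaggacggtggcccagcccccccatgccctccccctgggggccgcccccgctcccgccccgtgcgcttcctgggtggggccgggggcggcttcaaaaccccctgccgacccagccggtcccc

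SMAD3, the other receptor-activated SMAD, and the inhibitory SMAD7 showed no difference past the threshold between any pair of constructs. The SMAD3 levels of vector tumors were 0.69, 0.69, and 0.86, those of MOAP-1 tumors 0.98, 0.63, and 0.49, and those of K278R tumors 0.80, 0.32, and 0.65. K264R tumors had 0.83, 0.58, and 0.58, and tumors labeled RASSF1A 0.71, 0.55, and 0.72. The 5 groups overlapped, and the 95% interval of the difference from vector was -0.36 to 0.27 with MOAP-1, -0.40 to 0.23 with K264R, and -0.47 to 0.16 with K278R.

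SMAD7 stood at -1.87, -1.76, and -1.76 in vector tumors and at -1.62, -1.58, and -1.80 in MOAP-1 tumors. K264R tumors had -1.96, -1.90, and -1.98, K278R tumors -1.52, -1.90, and -1.51, and tumors labeled RASSF1A -1.67, -1.86, and -1.93. K264R tumors lay just below all vector tumors, whereas the other groups overlapped vector. The differences from vector were 0.13 ± 0.12 with MOAP-1 (adjusted p = 0.418, limma), -0.15 ± 0.12 with K264R (adjusted p = 0.341), and 0.15 ± 0.12 with K278R (adjusted p = 0.359). The probes whose pattern over the 15 tumors was most like that of SMAD7 were those of MYLK (r = 0.881), GARNL3 (0.852), and UTS2B (0.852).

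**Figure D2:**
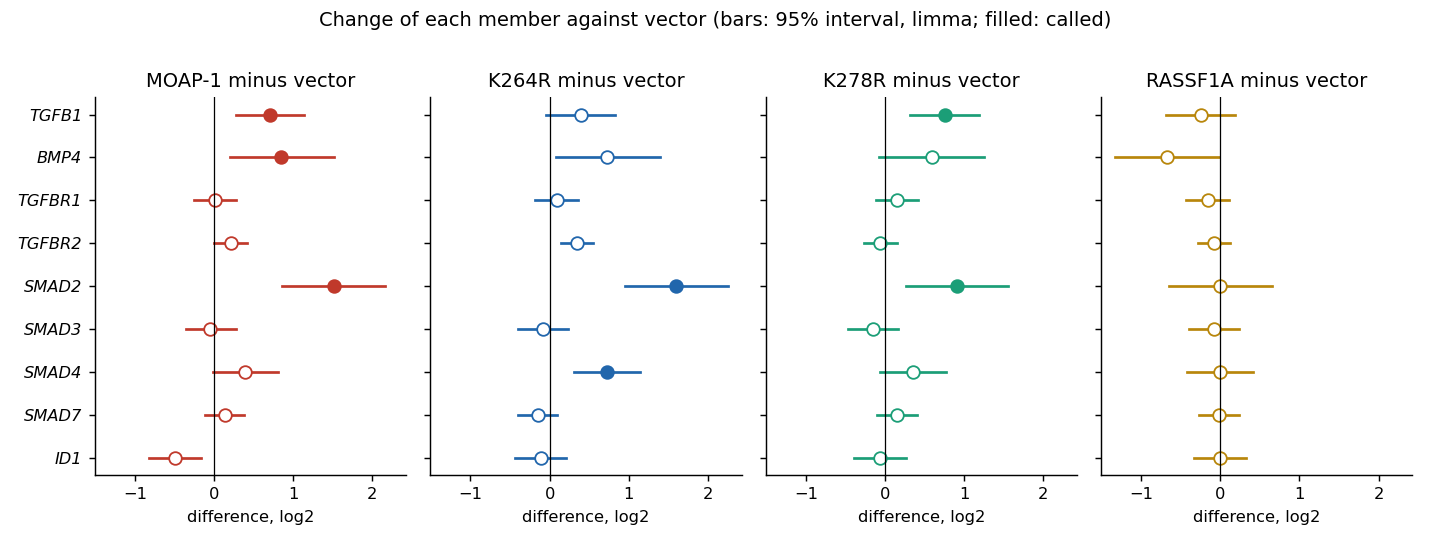
Difference from vector (x axis, log2) of each gene (y axis) in the MOAP-1, K264R, K278R, and RASSF1A tumors. Points are differences of means of 3 tumors, bars are 95% intervals from limma, and filled points passed both thresholds, as 7 did: TGFB1, BMP4, and SMAD2 with MOAP-1, SMAD2 and SMAD4 with K264R, and TGFB1 and SMAD2 with K278R.

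TGFB1, the ligand TGF-β1, was higher in MOAP-1 and K278R tumors. Vector tumors had -2.62, -2.74, and -2.61, MOAP-1 tumors -2.21, -1.56, and -2.06, and K278R tumors -2.00, -1.81, and -1.88. No MOAP-1 or K278R tumor overlapped a vector tumor. The change was 0.71 ± 0.20 (1.63-fold, adjusted p = 0.0185, limma) with MOAP-1 and 0.76 ± 0.20 (1.69-fold, adjusted p = 0.0209) with K278R. The first call was lost without MOAP-1 tumor 2 (adjusted p = 0.0852) or vector tumor 2 (0.064), and the second without K278R tumor 3 (0.0574) or vector tumor 2 (0.0786). K264R tumors had -2.45, -1.81, and -2.51, with a difference of 0.40 ± 0.20 that did not pass (adjusted p = 0.144) and took the other sign under normexp (-0.17). The difference of MOAP-1 minus K264R was 0.31 (95% interval -0.13 to 0.75, adjusted p = 0.588). Tumors labeled RASSF1A had -3.16, -2.95, and -2.61, with tumor 3, on the slide of the vector tumors, at the vector level.

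The levels of TGFB1 varied beside the fibroblast markers. The summed fibroblast level was 1.24 to 4.45 in vector tumors, 2.79 to 5.67 in MOAP-1 tumors, 2.44 to 4.46 in K264R tumors, 3.89 to 5.60 in K278R tumors, and 3.27 to 3.83 in tumors labeled RASSF1A. Of the 8 fibroblast genes tested, 1 was called higher with MOAP-1 (COL1A1, against 9.87% of all probes) and 1 with K278R (PDGFRB, against 7.71%), and 0 were called with K264R or RASSF1A by limma, with 0 below an unadjusted p of 0.05 in either. The differences of all 8 were positive with MOAP-1 and with K278R, with medians of 1.61 and 1.52 and 4 below an unadjusted p of 0.05 in each, while the median was 0.33 with K264R and 0.94 with RASSF1A. Over all 30585 probes, 12970 with MOAP-1, 13739 with K264R, 11071 with K278R, and 3696 with RASSF1A were below that p. Within MOAP-1, K264R, and K278R the tumor with the highest TGFB1, tumor 2 in each, also had the highest fibroblast level (5.67, 4.46, and 5.60). Within vector and RASSF1A the tumor with the highest TGFB1, tumor 3 in both, had the lowest fibroblast level (1.24 and 3.27). Over 15 tumors r was 0.56 (rho 0.57), or 0.51 within constructs and 0.46 without the 2 tumors farthest from the median fibroblast level, against a median of 0.10 over all probes. The fibroblast markers read cross-hybridized or human signal, and the part of fibroblast RNA in the TGFB1 values was not tested.

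BMP4, the other ligand, was higher in MOAP-1 tumors and varied widely within groups. Vector tumors were at -0.25, -0.86, and -0.16, and MOAP-1 tumors at 0.17, 0.56, and 0.57. K264R tumors had 0.11, 0.47, and 0.35, K278R tumors 0.29, -0.27, and 0.50, and tumors labeled RASSF1A -1.88, -0.84, and -0.58. All MOAP-1 and K264R tumors lay above all vector tumors, and K278R tumor 2 fell among them. The change with MOAP-1 was 0.85 ± 0.30 (1.81-fold, adjusted p = 0.0486, limma), a call that was lost in 10 of 15 fits with 1 tumor left out (adjusted p of 0.0526 to 0.186 there). The changes with K264R (0.73 ± 0.30, adjusted p = 0.0778) and K278R (0.59 ± 0.30, adjusted p = 0.178) did not pass. The largest departure from vector in tumors labeled RASSF1A was also that of BMP4, at -0.68 ± 0.30 (adjusted p = 0.402, limma), and without RASSF1A tumor 1 the difference was -0.29 (adjusted p = 0.827). On the slide that held both, RASSF1A tumor 3 differed from the mean of the vector tumors by -0.15 and lay inside their range.

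**Figure D3:**
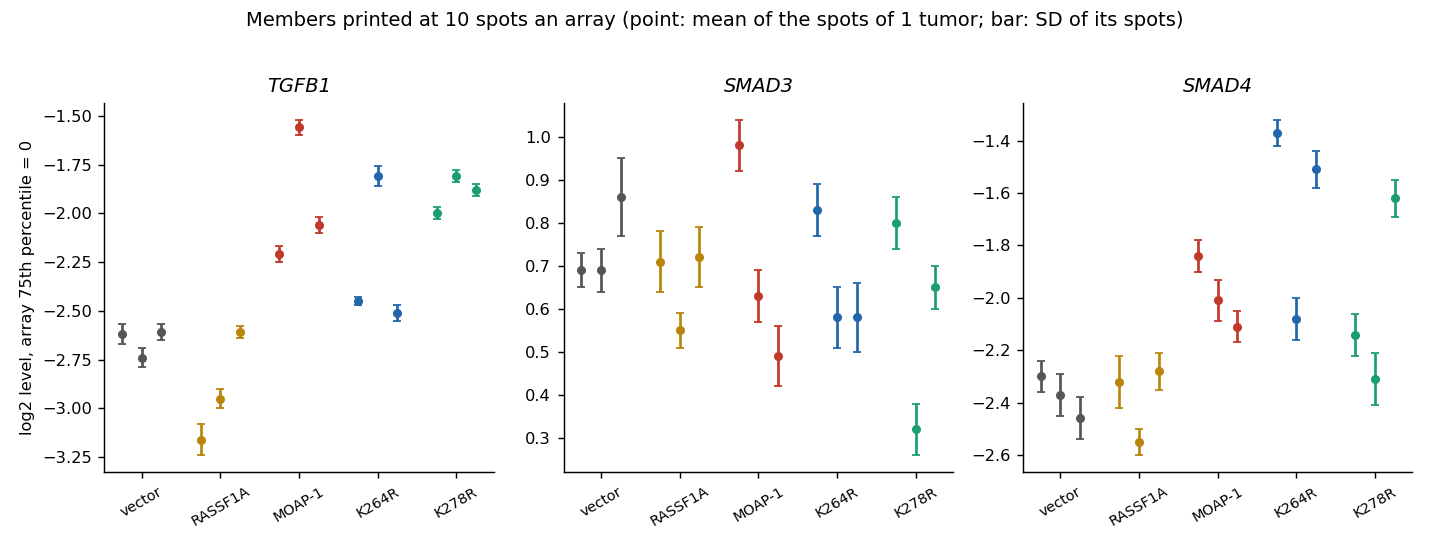
Log2 level (y axis) of TGFB1, SMAD3, and SMAD4 in each tumor, grouped by construct (x axis). Points are means of up to 10 spots on 1 array and bars are the SD of those spots, with medians of 0.04, 0.06, and 0.07.

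Repeated spots gave the error of printing and reading within 1 array. The SD between spots of 1 array had a median of 0.04 for TGFB1, 0.06 for SMAD3, and 0.07 for SMAD4. The SD between tumors of a construct, which also holds labeling, hybridization, and array error, was 0.27, 0.18, and 0.25. Each tumor had 1 array, so tumor and array cannot be told apart.

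Neither receptor was called against vector. TGFBR2, the type II receptor, was at 0.05, 0.09, and 0.09 in vector tumors and at 0.48, 0.41, and 0.38 in K264R tumors. MOAP-1 tumors had 0.45, 0.24, and 0.16, K278R tumors -0.03, -0.06, and 0.16, and tumors labeled RASSF1A 0.05, -0.01, and -0.05. All K264R and MOAP-1 tumors exceeded all vector tumors by a small margin. The difference with K264R was 0.35 ± 0.09, which passed the adjusted p (0.0122, limma) but, at 1.27-fold, not the fold threshold. With MOAP-1 it was 0.21 ± 0.09 (adjusted p = 0.111), and with K278R -0.06 ± 0.09 (adjusted p = 0.698). K264R minus K278R was 0.40 (95% interval 0.20 to 0.61), with an unadjusted p of 0.000849 and an adjusted p of 0.0649. The probes most like TGFBR2 over the 15 tumors were those of RAD50 (r = 0.957), DNAJA1 (0.942), and WASHC3 (0.937).

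TGFBR1, the type I receptor, had its lowest group mean in tumors labeled RASSF1A (-4.20, -3.99, and -4.12). Vector tumors had -3.85, -4.10, and -3.87, MOAP-1 tumors -3.98, -4.00, and -3.81, K264R tumors -3.75, -3.80, and -4.00, and K278R tumors -3.76, -3.58, and -4.02. The groups overlapped, and the 95% intervals of the differences from vector were -0.26 to 0.28 with MOAP-1, -0.18 to 0.36 with K264R, and -0.11 to 0.42 with K278R.

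ID1, a target of BMP signaling, was not called against vector. Vector tumors had 4.30, 4.28, and 4.58, MOAP-1 tumors 4.25, 3.72, and 3.69, and K264R tumors 4.34, 4.24, and 4.23. K278R tumors had 4.42, 4.14, and 4.40, and tumors labeled RASSF1A 4.36, 4.55, and 4.23. MOAP-1 tumor 1 lay just below the lowest vector tumor, and tumors 2 and 3 were the lowest of all 15. The difference with MOAP-1 was -0.50 ± 0.15 (1.41-fold, adjusted p = 0.0243, limma), under the fold threshold. Without MOAP-1 tumor 1 it was -0.68 and passed both thresholds (adjusted p = 0.00409), whereas it was -0.27 (adjusted p = 0.202) under quantile normalization and -0.22 (adjusted p = 0.458) under normexp. MOAP-1 minus K278R was -0.44, with an adjusted p of 0.472 by limma. On slide B, which held both, MOAP-1 tumor 2 differed from the K278R mean by -0.60 and lay below the K278R range of 4.14 to 4.42.

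ID1 and SMAD3 varied opposite to the fibroblast markers. MOAP-1 tumors 2 and 3 had summed fibroblast levels of 5.67 and 5.22, and MOAP-1 tumor 1 had 2.79. Over the 15 tumors r was -0.66 for ID1 (rho -0.47), or -0.75 within constructs and -0.44 without the 2 tumors farthest from the median. For SMAD3 it was -0.70 (rho -0.68), or -0.77 within constructs and -0.72 without those 2 tumors. Of all probes tested, 1.04% had a lower r than ID1 and 0.585% a lower r than SMAD3. The fibroblast markers read cross-hybridized or human signal here too, and the part of fibroblast RNA in these values was not tested.

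**Figure D4:**
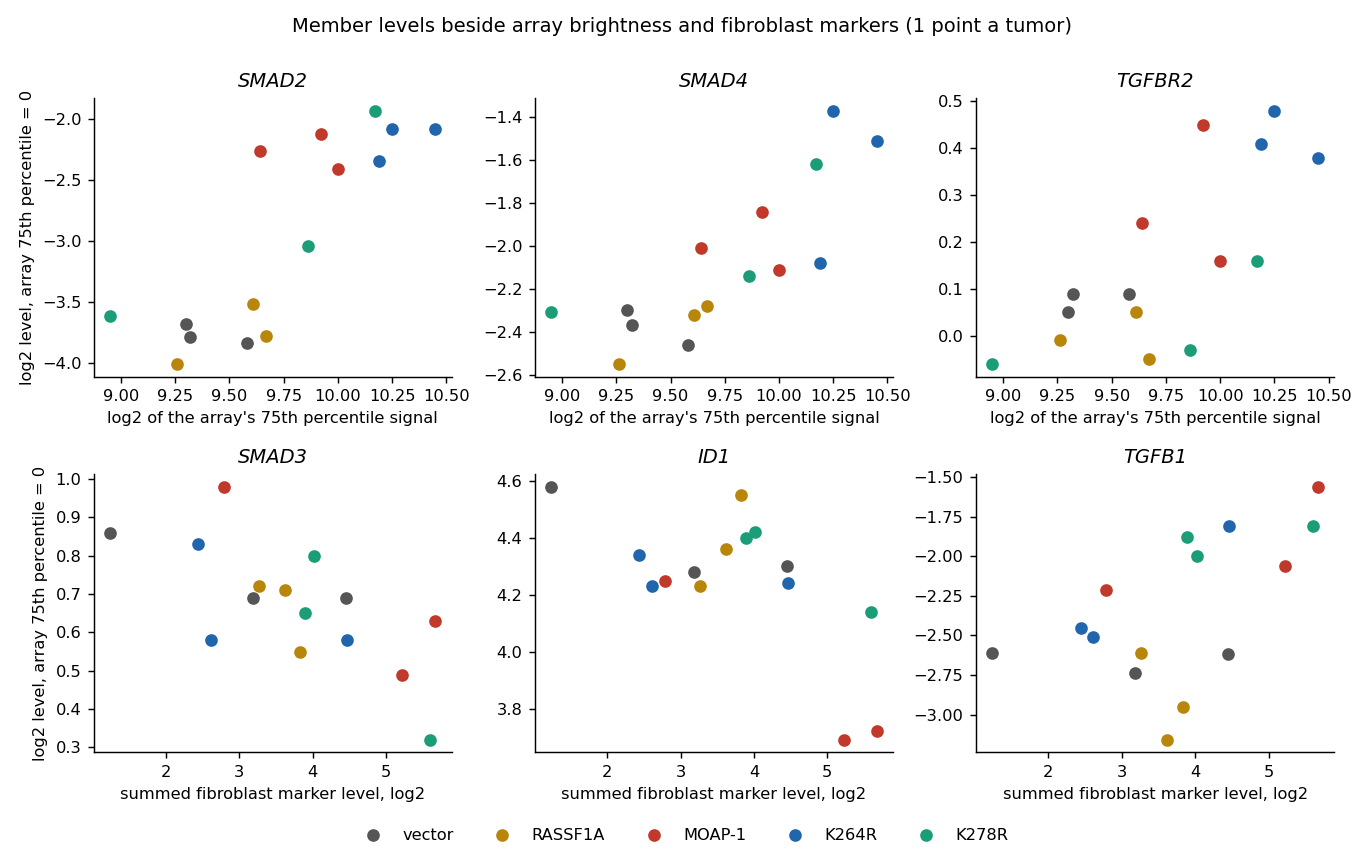
Log2 level (y axes) of SMAD2, SMAD4, and TGFBR2 against log2 of the 75th percentile signal of the array, and of SMAD3, ID1, and TGFB1 against the summed level of 10 fibroblast markers. Each point is 1 tumor colored by construct; SMAD2 rose with array brightness (r = 0.83), and ID1 was lowest in MOAP-1 tumors with fibroblast levels of 5.22 and 5.67.

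The order of the constructs was weakly resolved by the tumors. When the 5 constructs were ordered by mean level for each gene, only SMAD2 had a pair of neighbors that differed (K278R above RASSF1A by 0.91 ± 0.30, adjusted p = 0.0378, limma), 1 of 36 neighboring pairs. The order for SMAD2 was K264R, MOAP-1, K278R, RASSF1A, vector, for TGFB1 K278R, MOAP-1, K264R, vector, RASSF1A, and for BMP4 MOAP-1, K264R, K278R, vector, RASSF1A. MOAP-1 against K264R gave 0 calls among the 9 genes, against 0.00327% of all probes, with 2 (ID1 and SMAD7) below an unadjusted p of 0.05. MOAP-1 against K278R gave 0 calls, against 0% of all probes, with 2 (ID1 and TGFBR2) below that p, and K264R against K278R gave 0, against 0.618%, with 3 (TGFBR2, SMAD2, and SMAD7) below it. Over all 30585 probes, 3286, 2820, and 8450 were below that p, in the same order. Compared with the tumors labeled RASSF1A, 3 genes were called higher with MOAP-1 (13% of all probes), 4 with K264R (12%), and 3 with K278R (11.5%). TGFB1, SMAD2, and BMP4 were called in all 3 of these comparisons, which share the RASSF1A tumors, and SMAD4 in that of K264R. BMP4 was 2.89-fold higher with MOAP-1 than with RASSF1A (1.53 ± 0.30, adjusted p = 0.00169). Slide and construct cannot be told apart in these 3 comparisons with RASSF1A. RASSF1A tumors 1 and 2, alone on slide E, had BMP4 levels of -1.88 and -0.84, against -0.58 in tumor 3 on slide D.

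The rest of the pathway was described over 64 other genes, of which all 64 had a tested probe and 26 passed the F test (43.3% of all probes did). Against vector, 11 of them were called higher and 4 lower with MOAP-1 (9.87% and 6.7% of all probes), 8 higher and 3 lower with K264R (9.32% and 10.2%), and 7 higher and 2 lower with K278R (7.71% and 3.21%). Tumors labeled RASSF1A gave 0 calls by limma, with 8 below an unadjusted p of 0.05 (3696 of 30585 over all probes) and 0 by the methods' t-test. The median change of the 64 genes was 0.11, 0.02, 0.17, and 0 with MOAP-1, K264R, K278R, and RASSF1A.

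These calls also depended on the processing. Under quantile normalization the split was 5 higher and 5 lower with MOAP-1, 7 and 2 with K264R, and 3 and 3 with K278R. Over all probes that split was 2302 and 2427, 2710 and 2872, and 1371 and 1292. Under normexp 1 gene was called with MOAP-1 and 1 with K264R, FKBP1A in both, and 0 with K278R by limma. All probes there gave 256 and 266, 263 and 654, and 0 and 1. Under normexp without outlying spots the split was 1 higher and 3 lower with MOAP-1, 1 and 10 with K264R, and 1 and 1 with K278R. Among all probes it was 1172 and 1463, 1280 and 6576, and 657 and 674. Of the 35 called changes, 23 were still called under quantile normalization, 2 under normexp, and 10 under normexp without outlying spots, and 0, 19, and 11 took the other sign. Under normexp those of LTBP2, BMPR1B, and ZFYVE9 did so in every construct that called them, as did that of ACVR2A with MOAP-1 and of CDKN1A with K278R, and those of LTBP2 and BMPR1B also did without the outlying spots, so the values of these 5 genes given below carry no settled direction. FKBP1A was called with all 3 constructs without the outlying spots (1.29, 1.32, and 0.97). With 1 tumor left out, the calls with MOAP-1 numbered 8 without MOAP-1 tumor 2 and 9 without MOAP-1 tumor 3 (15 here), those with K278R 5 without K278R tumor 3 (9 here), and those with RASSF1A 3 without RASSF1A tumor 3. Over all probes these fits called 2508 higher and 1814 lower, 2598 and 2122, 1617 and 740, and 260 and 1154, in that order.

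**Figure D5:**
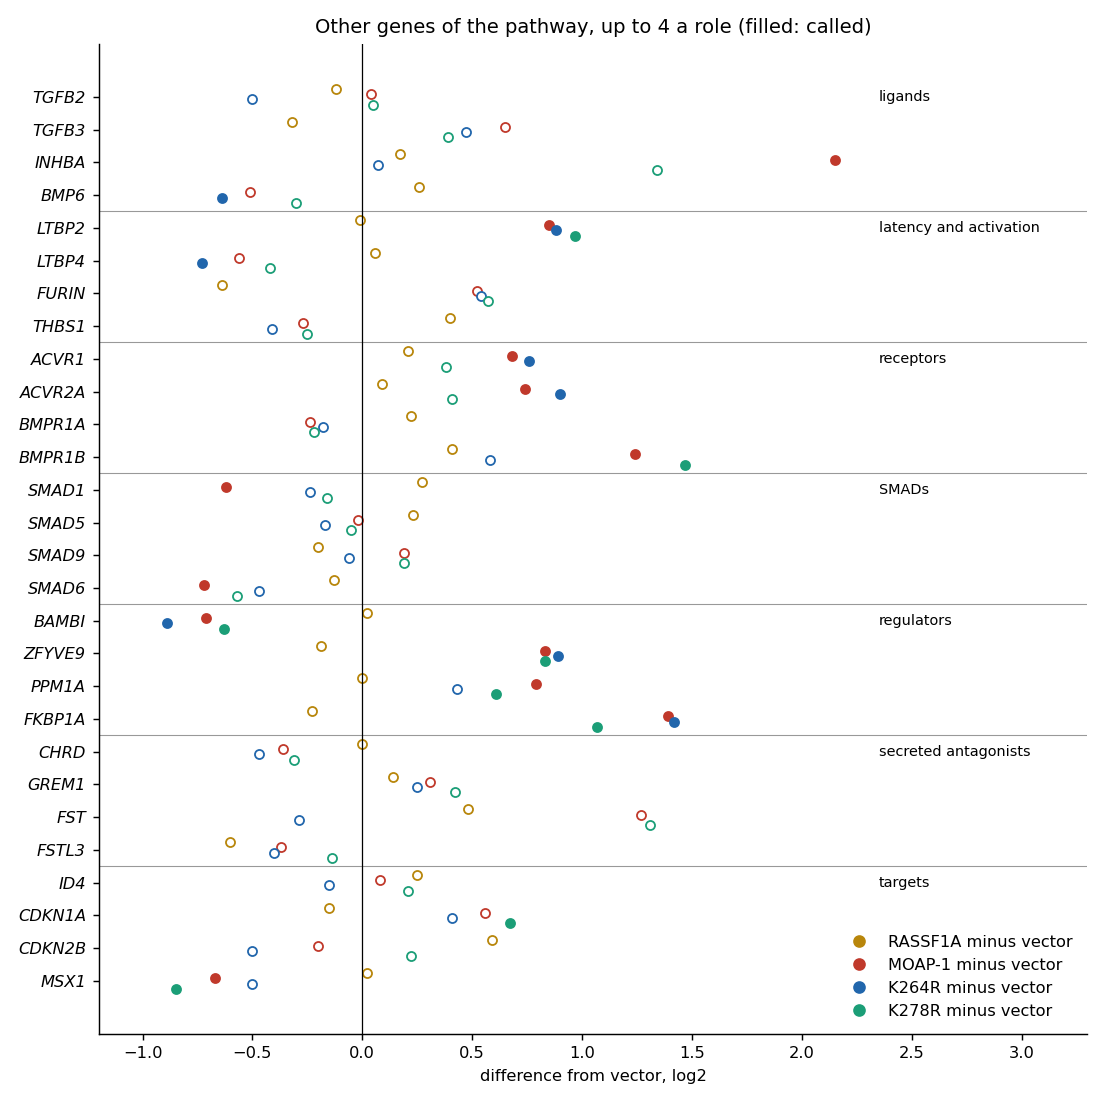
Difference from vector (x axis, log2) of up to 4 other pathway genes a role, those with the smallest F test p, by construct (color). Filled points passed both thresholds; FKBP1A was higher and BAMBI lower with MOAP-1, K264R, and K278R, and ZFYVE9 was higher in these values but took the other sign under normexp.

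Among ligands, 2 of 9 passed the F test, TGFB3 and BMP6. BMP6 was lower with K264R (-0.64 ± 0.19, adjusted p = 0.021). INHBA, the activin A subunit, was called higher with MOAP-1 (2.15 ± 0.77, adjusted p = 0.0496, limma), with -1.81, 0.64, and 0.01 in MOAP-1 tumors and -3.04, -0.77, and -3.81 in vector tumors. The groups overlapped for INHBA, and its F test was not passed (adjusted p = 0.0996). TGFB2 was not called in any comparison with vector.

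Of the 6 genes that hold ligands latent or release them, 5 passed the F test. LTBP2, a latent TGF-β binding protein, was called higher with MOAP-1 (0.85 ± 0.25), K264R (0.88 ± 0.25), and K278R (0.97 ± 0.25; adjusted p = 0.0217, 0.0153, and 0.0175). LTBP4, of the same family, was lower with K264R (-0.73 ± 0.12, adjusted p = 0.000565), but its second probe was not called (-0.17, adjusted p = 0.131). FURIN, the protease that cleaves the TGF-β precursor, differed across constructs by the F test (adjusted p = 0.0012) and was not called against vector. Its differences were 0.52, 0.54, and 0.57 for MOAP-1, K264R, and K278R, and -0.64 for the tumors labeled RASSF1A.

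Of the 10 other receptors, 5 passed the F test. ACVR2A, an activin type II receptor, was called higher with MOAP-1 (0.74 ± 0.22, adjusted p = 0.0245, limma) and K264R (0.90 ± 0.22, adjusted p = 0.00779). The BMP receptor gene BMPR1B was called higher with MOAP-1 (1.24 ± 0.29, adjusted p = 0.00696) and K278R (1.47 ± 0.29, adjusted p = 0.0057). ACVR1, a BMP type I receptor, was called with MOAP-1 (0.68) and K264R (0.76), and not with K278R (0.38, adjusted p = 0.129). Its second probe was called with all 3 (1.81, 1.70, and 1.09). For BMPR1A the probes disagreed, with -0.24 at the brightest of 3 and 1.38 and 1.86 at the others with MOAP-1, so no direction is given for it.

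Of the 4 other SMADs, SMAD1, which carries BMP signals, was lower with MOAP-1 (-0.62 ± 0.16, adjusted p = 0.0102, limma). SMAD6, the inhibitory SMAD of the BMP branch, was also lower with MOAP-1 (-0.72 ± 0.19, adjusted p = 0.013). Neither was called with K264R or K278R, where SMAD6 stood at -0.47 and -0.57. The difference between those constructs and MOAP-1 was not called for any of the 64 genes.

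Among 15 regulators, 7 passed the F test. FKBP1A, which binds type I receptors and holds them inactive, had the smallest F test p of the 64 genes (2.82e-05). It was higher with MOAP-1 (1.39 ± 0.17, adjusted p = 0.000213, limma), K264R (1.42 ± 0.17, adjusted p = 0.000121), and K278R (1.07 ± 0.17, adjusted p = 0.00252), at 4 of its 5 probes. The remaining probe showed 0, 0.08, and -0.15. ZFYVE9, which presents SMAD2 and SMAD3 to the receptor, was called, at 0.83, 0.89, and 0.83 (adjusted p = 0.00275, 0.0014, and 0.00617). BAMBI, a pseudoreceptor that blocks TGF-β signaling, was lower, with differences of -0.71, -0.89, and -0.63 (adjusted p = 0.0167, 0.00401, and 0.04). In tumors labeled RASSF1A the differences of FKBP1A, ZFYVE9, and BAMBI were -0.23, -0.19, and 0.02, and none was called.

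Secreted antagonists gave 0 calls against vector among 6 genes by limma, and 1 of them, CHRD, passed the F test. Of the 14 other targets, 4 passed the F test. CDKN1A, the cell cycle inhibitor p21, was called higher with K278R (0.67 ± 0.14, adjusted p = 0.00617, limma) and stood at 0.56 with MOAP-1 and 0.41 with K264R. MSX1, a BMP target, was called lower with MOAP-1 (-0.67 ± 0.17, adjusted p = 0.0088) and K278R (-0.85 ± 0.17, adjusted p = 0.00531). The ID1 relatives ID2 (adjusted p = 0.332, limma) and ID3 (0.335) did not pass the F test.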

How the data were processed

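RNA from 15 HCT116 xenograft tumors was hybridized to one-color Agilent arrays, 1 tumor an array. The deposited intensities are processed signals from Agilent Feature Extraction (9.1 per the labels, 10.5.1.1 per the file headers), background-corrected and not normalized between arrays. Log2 values that the authors normalized in GeneSpring were also deposited and served as an alternative. Of the 15 columns there, 8 matched the array with their label and 7 a different array of that construct.

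Control spots and spots marked as outliers were removed, log2 signals were scaled by subtracting each array's 75th percentile, and repeated spots were averaged. A probe entered the tests if the 3 tumors of some construct all had it well above background. Accessions were named through the RefSeq table of GRCh38.p14 (25422 of 34127 probes). The 75th percentile signal was 495.8 to 1400, 85.1% to 93.1% of spots were well above background, and no spot was saturated. The number of tumors limits the precision.

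A single limma model (version 3.58.1, R 4.3.3) with construct as its term covered the 15 arrays and had 10 residual degrees of freedom. p-values were adjusted by Benjamini-Hochberg over the 30585 probes of a comparison. Calls required 1.5-fold or more and an adjusted p under 0.05. The fit was tested on simulated data.

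The members and lists were chosen with earlier results of these data known. All 9 genes were named, up to 4 other genes a role by the smallest F test p, and the 3 probes most like TGFBR2 and SMAD7 by Pearson's r. The other pathway genes enter the counts only, and ID2 and ID3 were named after their values were seen. A gene with several probes was described by the brightest. The alternatives were quantile normalization, normexp (offset 50, on the median signal because the files used here hold no mean signal), other filters, the log2 table, slide, scan day, or replicate blocks, the 6 arrays compared, the methods' t-test, no fold threshold, and each tumor left out.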

Additional observations from a re-analysis of the deposited data

How the results depend on the processing

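Of 196 alternative values of the 7 called changes, 144 were still called, and 4 turned their sign, all under normexp with all spots. There TGFB1 stood at -0.23 with MOAP-1 and -0.16 with K278R, and SMAD2 at -0.10 and -0.40, while the median over all probes was -0.53 with MOAP-1, -0.31 with K264R, -0.46 with K278R, and -0.52 with RASSF1A, and its calls over all probes split into 256 higher and 266 lower with MOAP-1 and 263 and 654 with K264R. The count of genes called with MOAP-1 was 0 under normexp and 1 by the methods' t-test with adjustment (3 in the report), and that with K264R was 0 and 1 (2 in the report). The count with K278R, 2 in the report, was 1 under quantile normalization, no filter on dim probes, scan day as a term, the 6 arrays compared, and the methods' t-test without adjustment, and it was 0 under normexp with or without the outlying spots and by the adjusted t-test. Over all probes the calls with K278R were 0 higher and 1 lower under normexp, and 657 and 674 without the outlying spots. They were 0 and 0 by the adjusted t-test, and 802 and 362 with the 6 arrays compared. The adjusted t-test called 1507 higher and 1127 lower over all probes with MOAP-1, and 1884 and 2430 with K264R. The F test passed 1 gene under normexp and 3 with scan day as a term (5 in the report), and the neighboring pairs that differed, 1 in the report, were 0 under quantile normalization, normexp, and scan day. Without 1 tumor the counts ran from 1 to 3 with MOAP-1, 1 to 3 with K264R, 0 to 2 with K278R, 4 to 7 for the F test, and 0 to 1 for the neighbors, and stayed at 0 with RASSF1A. The 2-fold limit on local background that defines an outlying spot was set after seeing the data, and the cause of the shifts, under normexp or elsewhere, was not tested.

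With the replicate number as a replicate block the counts were 3, 2, 2, and 0 for MOAP-1, K264R, K278R, and RASSF1A, 5 for the F test, and 1 for the neighbors, so the block changed no count. Of 30 same-numbered pairs of tumors, 15 had deviations correlated above 0.1 (r from -0.25 to 0.37), and the tumors share only a number. With slide as a fixed term only 2 of the comparisons could be estimated, RASSF1A against vector and MOAP-1 against K278R, and neither had a called member by limma (ID1 in the second had the lowest adjusted p, 0.786, and was the one below an unadjusted 0.05). Of the 29 changes from vector that were not called, 19 took the other sign under some alternative, so no direction is claimed for those.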
